A study of Homo sapiens with 6 samples.

Results

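The genes of the NF-κB subunits and of their inhibitors were followed in HCCC9810 cells, a wild-type human cholangiocarcinoma (CCA) line, treated with isolinderalactone (ILL). The set was defined by symbol in the deposited table of raw read counts and holds 10 of its 19470 genes, all of which were found. RELA, RELB, REL, NFKB1 and NFKB2 encode the subunits, and NFKBIA, NFKBIB, NFKBIE, NFKBIZ and BCL3 encode proteins of the inhibitor family. Total RNA was profiled by RNA-seq in 3 control libraries, from cells given DMSO vehicle for 24 h, and in 3 libraries from cells given 20 μM ILL for 24 h. The study asked which pathways ILL alters in CCA cells and took up NF-κB signaling from these libraries. All libraries come from a single cell line at a single dose and time, and the labels do not say whether the replicates were separate cultures, so the p-values measure the spread between these libraries only.

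NF-κB is a family of transcription factors that bind DNA as dimers of proteins sharing a Rel homology domain. RelA (p65), RelB and c-Rel carry transactivation domains, whereas NFKB1 and NFKB2 encode the precursors p105 and p100, which are processed to p50 and p52 and whose own ankyrin repeats hold partner subunits in the cytoplasm. In the canonical pathway, signals that reach the IκB kinase (IKK) complex, including those passing through the CBM signalosome, which holds BCL10 and MALT1, lead to phosphorylation and degradation of IκB proteins and release RelA and c-Rel dimers. In the non-canonical pathway, the kinase NIK and IKKα drive processing of p100, which yields RelB:p52 dimers. Several genes of the family are themselves textbook NF-κB targets, which makes the pathway feed back on itself, and biliary epithelium uses it in inflammatory signaling.

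The promoters of the family are shown first, since several of these genes are known to be regulated by NF-κB itself. Windows from 250 bases before to 50 bases after a transcript start were taken from RefSeq on GRCh38.p14; the submitters' processing notes name GRCh38. These windows covered 8 of the 10 genes (all but RELB and NFKBIE), with 14 starts in all. The NF-κB consensus decamer, searched on both strands with overlapping matches merged into 1 site, was found at 12 sites in 7 of the 8 genes, or 87.5%. It was found in 13.2% of all 27305 genes with a window and in 17.4% of the 10482 tested genes with a window. A gene with more windows has more places for a match. Counted by window, 9 of the 14 held a site, or 64.3%, against 11.3% of all 35116 windows. RELA had no match in either of its windows. Of the 12 sites, 9 are shown: all with the decamer that recurs among the genes, 3 of those of NFKB2, and that of BCL3. The matching bases are in capitals with 10 bases on each side, 5′ to 3′ on the strand of the gene, with positions counted from +1 at the transcript start of the window. For the NFKB2 sites from -107 to -97 and from -78 to -69 this start is at 102394578. It is at 38899969 for NFKBIB and at 44748708 for BCL3. These starts lie downstream of the first base of the gene positions given below.
REL, chr2:60881517-60881547, plus strand, capitals from -47 to -37: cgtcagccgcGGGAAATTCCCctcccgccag
NFKB1, chr4:102501300-102501329, plus strand, capitals from -49 to -40: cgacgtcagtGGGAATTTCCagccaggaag
NFKB2, chr10:102394461-102394491, plus strand, capitals from -107 to -97: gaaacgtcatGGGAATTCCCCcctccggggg
NFKB2, chr10:102394490-102394519, plus strand, capitals from -78 to -69: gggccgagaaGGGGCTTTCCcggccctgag
NFKB2, start at 102395705, chr10:102395674-102395703, plus strand, capitals from -21 to -12: tggtattttcGGGACTTTCCtaagctgctc
NFKBIA, chr14:35404811-35404840, minus strand, capitals from -81 to -72: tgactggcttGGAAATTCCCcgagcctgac
NFKBIB, chr19:38899931-38899961, plus strand, capitals from -28 to -18: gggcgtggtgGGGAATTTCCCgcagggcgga
NFKBIZ, chr3:101827757-101827786, plus strand, capitals from -223 to -214: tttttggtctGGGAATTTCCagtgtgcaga
BCL3, chr19:44748700-44748729, plus strand, capitals from 3 to 12: ccggctgcagGGGAAGTCCCggcgcccggc

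One exact decamer, GGGAATTTCC or its reverse complement GGAAATTCCC, stood in the windows of 5 of the 8 genes: REL, NFKB1, NFKBIA, NFKBIB and NFKBIZ. The same letters were present in 0.18% of all genes with a window, 49 of 27305, and in 0.24% of the tested genes with a window. This decamer was picked out after the sites had been listed, and a match describes letters in a window, not binding. NFKB2 and BCL3 had other forms of the consensus. The matches were spread over genes that passed and genes that did not pass the test of their mRNA: of the 7 genes with a site, NFKB2, NFKBIA and BCL3 rose more than 2-fold with ILL, while REL, NFKB1, NFKBIB and NFKBIZ did not pass the test, as described next.

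Total counts were between 34282764 and 37758569 per library, and each of the 10 genes had between 184 and 5483 counts in every library. All 10 passed the filter on low counts and were tested among 13066 genes with the quasi-likelihood test of edgeR, and p-values were adjusted by Benjamini-Hochberg over all of them. Calls needed an adjusted p under 0.05 and, for genes called higher or lower, a fold change above 2 or below 0.5. The same cutoffs stand in the study's methods. Levels are given as CPM, a gene's read count relative to the size of its library, scaled by edgeR's TMM method, and, for comparisons between genes, as the authors' FPKM, which are divided by gene length. Biliary epithelial markers were expressed, with keratins KRT7, KRT19, KRT8 and KRT18 highest, followed by EPCAM and SOX9. The summed level of the biliary markers was between 8805 and 9034 CPM in control libraries and between 8524 and 9016 CPM with ILL. Within this sum KRT18 fell to 0.566 times its control level (edgeR adjusted p = 4.2e-14) and SOX9 to 0.676 times, while KRT7 rose 1.56-fold (edgeR adjusted p = 2.6e-12). T cell markers summed to at most 0.0858 CPM in any library, and B cell markers to between 0.198 and 0.515 CPM in controls and between 1.06 and 1.98 CPM with ILL, almost all from CD79A. Leukocyte or macrophage markers summed to between 37.8 and 42.3 CPM in controls and between 113 and 119 CPM with ILL, almost all from CD68, and PTPRC, the pan-leukocyte marker CD45, was under 1 CPM throughout. The part of these marker differences in the results that follow was not tested. Hepatocyte markers reached at most 16.9 CPM, fibroblast markers 17.0 CPM and endothelial markers 1.91 CPM. In bulk RNA, a change in the share of cells that express a gene and a change in its level per cell cannot be told apart.

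The family held genes that rose with ILL and genes that did not pass the test. RELB, NFKB2, NFKBIA and BCL3 were called higher, and RELA and NFKBIE rose by less than 2-fold. REL, NFKB1, NFKBIB and NFKBIZ did not pass the test, and 0 of the 10 genes were lower. Thus 4 of the 10 were called higher, against 12.5% of all tested genes called higher and 11.4% called lower. At an adjusted p under 0.05 with no fold cutoff, 6 were higher and 0 lower, against 36.2% and 36.9% of all tested genes. In the same 6 genes every ILL library lay above every control library, against 37.5% of all tested genes with ILL above and 38% with ILL below. DESeq2's Wald test also called 4 higher and 0 lower. The median log2 fold change of the 10 genes was 0.85, and that of all tested genes was -0.0012.

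**Figure D1:**
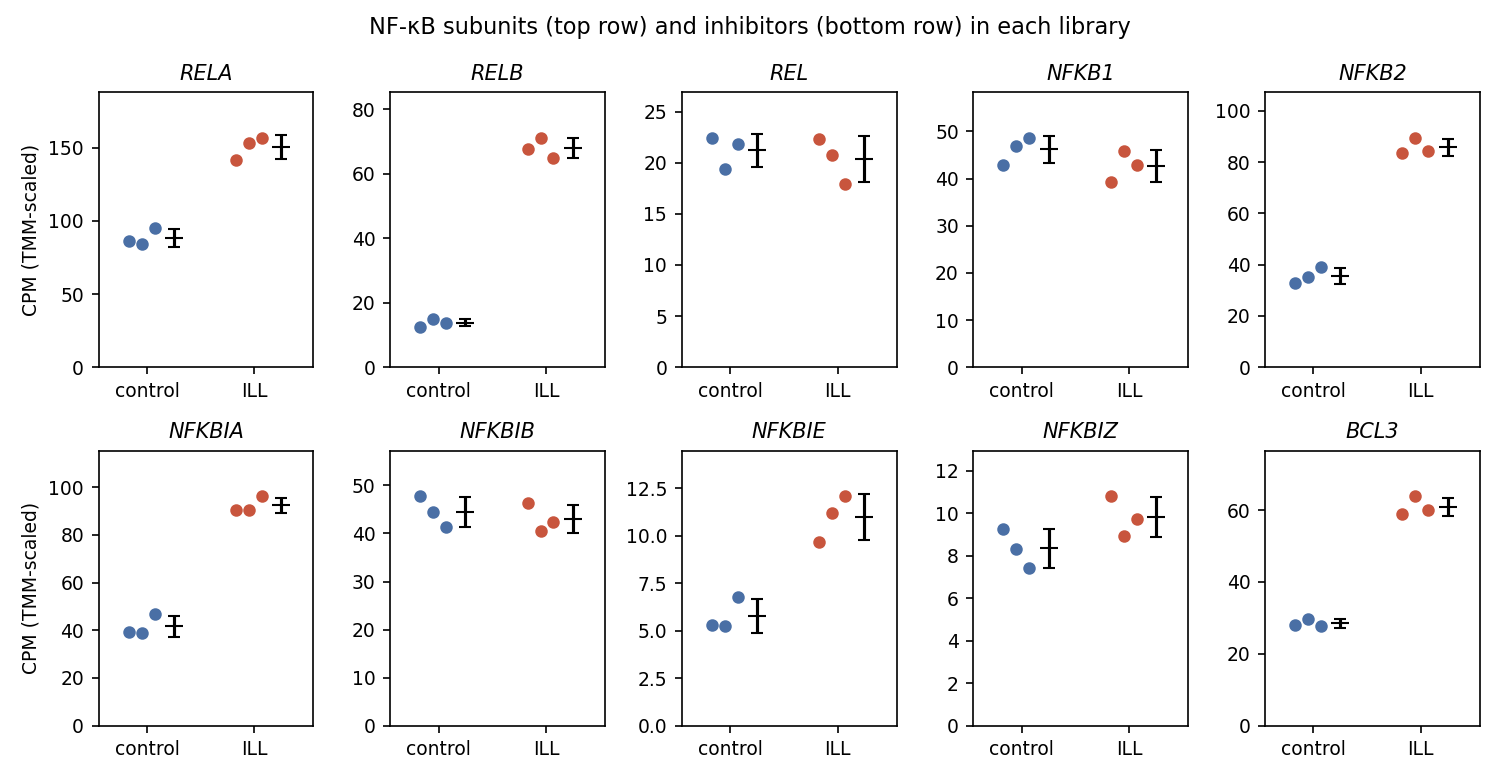
TMM-scaled CPM (linear axis from 0) of each NF-κB subunit gene (top row) and inhibitor gene (bottom row) in the 3 control libraries (blue) and the 3 ILL libraries (red), with the group mean ± SD in black. The groups are separate for RELA, RELB, NFKB2, NFKBIA, NFKBIE and BCL3 and overlap for REL, NFKB1, NFKBIB and NFKBIZ.

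Among the subunits, RELB changed most. It encodes the Rel protein of the non-canonical pathway and lies on chromosome 19 from 45001464 to 45038192 (RefSeq, GRCh38.p14, as for all gene positions given here). RELB was at 12.6, 14.8 and 13.7 CPM in control replicates 1 to 3 and at 67.7, 71.2 and 64.9 CPM in ILL replicates 1 to 3. Every ILL library was more than 4 times the highest control library. Its log2 fold change was 2.31 (edgeR, SE 0.08, adjusted p = 1.3e-18), a 4.95-fold increase with the interval of the log2 value from 2.15 to 2.47.

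NFKB2 encodes p100, the precursor of p52 and the usual partner of RelB, and lies on chromosome 10 from 102394110 to 102402529. It was at 33.0, 35.03 and 39.1 CPM in control libraries and at 83.4, 89.4 and 84.4 CPM with ILL. The groups were far apart and each was tight, with an SD of 3.10 CPM in controls and 3.25 CPM with ILL (n = 3 each). NFKB2 rose by a log2 fold change of 1.26 (edgeR, SE 0.07, adjusted p = 2.2e-14), or 2.40-fold.

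RELA, which encodes p65 and lies on chromosome 11 from 65653601 to 65663857, rose by less. Its level was 86.0, 83.9 and 95.4 CPM in control libraries and 141.5, 154 and 157 CPM with ILL, with no overlap. The log2 fold change was 0.77 (95% interval from 0.64 to 0.89, edgeR adjusted p = 3.0e-11), or 1.70-fold, and the interval lay below the 2-fold line.

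The 2 remaining subunit genes did not pass the test. NFKB1, the p105/p50 gene on chromosome 4 from 102501359 to 102617302, was at 43.0, 46.9 and 48.6 CPM in control libraries and at 39.2, 45.9 and 42.9 CPM with ILL. Its log2 fold change was -0.11 (95% interval from -0.26 to 0.04, edgeR adjusted p = 0.165), and the groups overlapped. NFKB1 passed as lower, by less than 2-fold, when scaled by library size only (-0.18, adjusted p = 0.0255 in edgeR) and with limma on log2 of filtered FPKM (adjusted p = 0.0373 with 1 added and 0.0381 with 0.1 added), which would make 1 gene of the family lower without the fold cutoff. REL, the c-Rel gene on chromosome 2 from 60881574 to 60931612, was at 22.4, 19.4 and 21.8 CPM in control libraries and at 22.4, 20.7 and 18.0 CPM with ILL. Its log2 fold change was -0.06 (95% interval from -0.26 to 0.14, edgeR adjusted p = 0.589), and the groups overlapped. In GENCODE release 29, 5702 exon bases of REL are shared with AC010733.2, an annotated gene on the same strand that is not a row of the count table. How reads from these bases were assigned is not known, as the annotation behind the counts is not given.

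**Figure D2:**
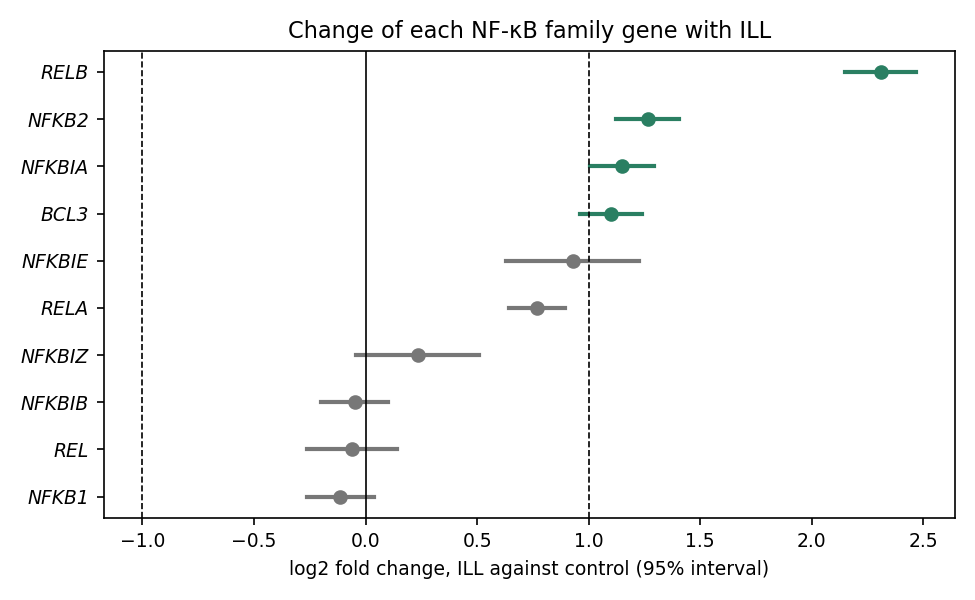
Log2 fold change of ILL against control for the 10 genes, from edgeR's quasi-likelihood fit, with the 95% interval as a line; dashed lines mark 2-fold changes and green marks genes called higher. RELB stands apart at 2.31, NFKB2, NFKBIA and BCL3 lie between 1.10 and 1.26, and the intervals of NFKBIZ, NFKBIB, REL and NFKB1 include 0.

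The inhibitor genes divided in the same way. NFKBIA encodes IκBα, the inhibitor whose degradation releases RelA dimers and whose own gene is a well-known NF-κB target, on chromosome 14 from 35401513 to 35404749. It was at 39.3, 38.9 and 46.7 CPM in control libraries and at 90.5, 90.3 and 96.1 CPM with ILL. The groups did not overlap, and control replicate 3 was the highest of its group. The log2 fold change was 1.15 (95% interval from 1.01 to 1.29, edgeR adjusted p = 2.0e-13).

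BCL3, on chromosome 19 from 44747705 to 44760044, encodes an atypical, nuclear member of the IκB family that binds p50 and p52 homodimers and acts as a coregulator. Its level was 27.9, 29.8 and 27.6 CPM in control libraries and 59.0, 63.8 and 60.1 CPM with ILL. The increase had a log2 fold change of 1.10 (edgeR, SE 0.07, adjusted p = 2.8e-13), or 2.15-fold. The call sat near the fold cutoff, and with limma on log2 of FPKM plus 1 the value was 0.92 and BCL3 was no longer called.

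NFKBIE encodes IκBε, a classical inhibitor that holds RelA and c-Rel dimers in the cytoplasm, on chromosome 6 from 44258166 to 44265551. It had the fewest counts of the family in control libraries, 205, 184 and 240, and 338, 385 and 422 with ILL. Both groups varied more in relative terms than those of NFKBIA, yet they did not overlap. Its log2 fold change was 0.93 (95% interval from 0.63 to 1.23, edgeR adjusted p = 3.5e-06), just under the fold cutoff. It was 1.06 without control replicate 3 and 1.01 without ILL replicate 1, and in both cases NFKBIE was called, which made 5 of the 10 genes.

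NFKBIB and NFKBIZ did not pass the test. NFKBIB, the gene of the classical inhibitor IκBβ on chromosome 19 from 38899666 to 38908889, was at 47.7, 44.4 and 41.4 CPM in control libraries and at 46.2, 40.5 and 42.3 CPM with ILL. Its log2 fold change was -0.05 (95% interval from -0.20 to 0.10, edgeR adjusted p = 0.553). NFKBIB shares 40 exon bases with SIRT2 on the opposite strand, and the strand setting of the counting is not given in the sources used here. NFKBIZ encodes IκBζ, a nuclear IκB protein that helps to switch on a subset of inflammatory genes, on chromosome 3 from 101827990 to 101861022. It was at 9.27, 8.34 and 7.44 CPM in control libraries and at 10.8, 8.95 and 9.72 CPM with ILL. The log2 fold change was 0.23 (95% interval from -0.04 to 0.51, edgeR adjusted p = 0.118), and its groups overlapped.

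The order of the levels per length changed between the groups. In control libraries RELA had the highest FPKM of the family, at 36.0 ± 2.34 FPKM (SD, n = 3). NFKBIB at 31.2 ± 2.35 FPKM and NFKBIA at 27.3 ± 2.76 FPKM followed, and the ranges of these inhibitor genes overlapped. NFKB1 was at 10.6 ± 0.62 FPKM and NFKB2 at 8.93 ± 0.73 FPKM. RELB at 6.18 ± 0.49 FPKM and BCL3 at 5.83 ± 0.25 FPKM had overlapping ranges, as did REL at 2.74 ± 0.21 FPKM and NFKBIE at 2.52 ± 0.37 FPKM. NFKBIZ was lowest, at 2.04 ± 0.23 FPKM.

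With ILL, RELA at 58.4 ± 2.89 FPKM and NFKBIA at 57.8 ± 2.10 FPKM (SD, n = 3) led with overlapping ranges. RELB moved from the sixth place to the third, at 29.2 ± 1.25 FPKM, in the range of NFKBIB at 28.8 ± 2.14 FPKM. NFKB2 was at 20.4 ± 0.66 FPKM, BCL3 at 11.9 ± 0.42 FPKM and NFKB1 at 9.34 ± 0.68 FPKM, so that NFKB2 and BCL3 both stood above NFKB1. NFKBIE was at 4.57 ± 0.49 FPKM, and REL at 2.50 ± 0.28 FPKM and NFKBIZ at 2.29 ± 0.23 FPKM were lowest, with overlapping ranges.

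**Figure D3:**
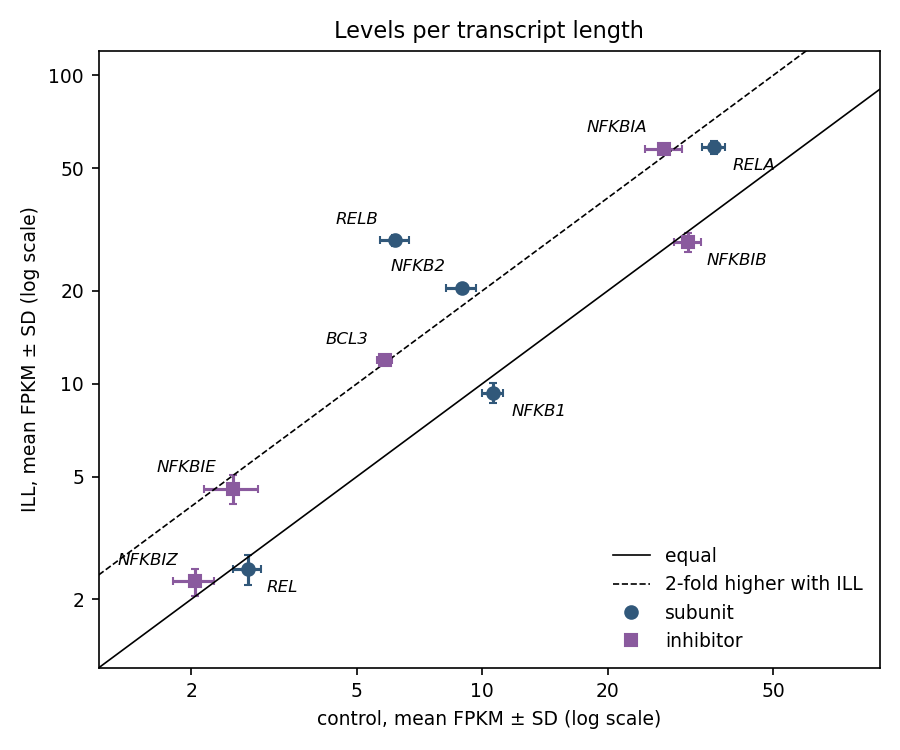
Mean FPKM ± SD of each gene in control libraries (horizontal) and ILL libraries (vertical), both on log axes, with subunits as circles and inhibitors as squares. NFKB1, REL, NFKBIB and NFKBIZ lie along the line of equal levels, and RELB lies farthest above the line of a 2-fold increase.

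Because the subunits act as dimers, the relative amounts of their transcripts were compared within each library, where the scaling between libraries cancels. Neither proteins nor dimers were measured in these libraries. The ratios come from the same reads as the changes of the single genes and are not separate evidence. RELB was at 0.163, 0.196 and 0.160 times the FPKM of RELA in control libraries and at 0.530, 0.513 and 0.459 times with ILL. The ratio was therefore 2.91-fold higher with ILL, with no overlap. NFKB2 was at 0.836, 0.813 and 0.875 times the FPKM of NFKB1 in control libraries and at 2.32, 2.12 and 2.14 times with ILL, a 2.61-fold difference. NFKB2 was thus below NFKB1 in all control libraries and above it in all ILL libraries. The smallest two-sided p that an exact permutation test of 3 against 3 libraries allows is 0.1, which both ratios reached (adjusted p = 0.125 over 5 ratios).

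RELB and NFKB2, the genes of the non-canonical dimer, together supplied 22.6%, 24.6% and 23.2% of the summed subunit FPKM in control libraries. With ILL they supplied 42.5%, 41.8% and 39.9%. The mean share was 23.5% ± 1.01 (SD, n = 3) in controls and 41.4% ± 1.38 (SD, n = 3) with ILL, 17.9 percentage points higher (exact permutation p = 0.1, adjusted p = 0.125). RELB alone went from 9.62% ± 0.88 to 24.4% ± 1.08, while NFKB1 went from 16.5% ± 0.60 to 7.79% ± 0.33 and REL from 4.25% ± 0.38 to 2.09% ± 0.28. RELA remained the main subunit transcript in every library, at between 54.3% and 56.7% in controls and between 47.6% and 50.5% with ILL. The lower shares of NFKB1 and REL stand beside a larger subunit sum and levels of their own that did not pass the test. The sum of the 5 subunits was 64.4 ± 3.48 FPKM in controls and 119.9 ± 3.75 FPKM with ILL.

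The classical inhibitors were set against the subunits in the same way. NFKB1 and NFKB2 are counted here as subunits only, although their precursors p105 and p100 also hold partner subunits in the cytoplasm. The summed FPKM of NFKBIA, NFKBIB and NFKBIE was 0.998, 0.938 and 0.912 times that of the 5 subunits in control libraries, and 0.795, 0.712 and 0.776 times with ILL. Every ILL library lay below every control library, and the ratio was 0.801 times that in controls (exact permutation p = 0.1, the smallest possible, adjusted p = 0.125). On raw counts not divided by length the difference was smaller, -0.17 in place of -0.32 on the log2 scale. In absolute terms the classical inhibitor sum was higher with ILL, at 91.1 ± 3.001 FPKM against 61.1 ± 1.81 FPKM (SD, n = 3), and of its 3 genes NFKBIA and NFKBIE had higher means and NFKBIB a lower one. For the nuclear inhibitors NFKBIZ and BCL3 together, the ratio to the subunits was 0.123 ± 0.0119 in controls and 0.118 ± 0.00303 with ILL, and the groups overlapped (exact permutation p = 0.8). This last difference was -0.04 on the log2 scale and changed sign to 0.10 on raw counts.

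Upstream of the family, 23 genes of the CBM signalosome, the IKK complex and its activators were read from the same fit. Of these, 3 were called higher and 0 lower, and without the fold cutoff 12 were higher and 5 lower. Over all tested genes 12.5% were called higher and 11.4% lower, and 36.2% and 36.9% without the fold cutoff. At the fold cutoff, the share of this list called higher was near the background and the share called lower was below it. Without the cutoff, the share higher was above the background and the share lower was below it. Whether these shares differ from the background was not tested. The median log2 fold change was 0.17. RBCK1, which encodes HOIL-1, a part of the linear ubiquitin ligase that activates IKK, rose from 60.1 ± 1.77 to 175 ± 4.90 CPM (SD, n = 3), a log2 fold change of 1.54 (edgeR adjusted p = 5.6e-18). The other 2 called genes, CARD14 and CARD9, averaged under 1 CPM over the 6 libraries and are named only because they complete the count. CARD9 was no longer called without control replicate 1, control replicate 2, ILL replicate 1 or ILL replicate 2, with log2 fold changes between 1.38 and 1.48.

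Genes of the signalosome proteins BCL10 and MALT1 moved by less than 2-fold and in opposite directions. BCL10, the adaptor, rose from 23.0 ± 0.70 to 35.4 ± 1.11 CPM (log2 fold change 0.62, edgeR adjusted p = 6.4e-08), and MALT1, the paracaspase, fell by 0.57 on the log2 scale, from 26.5 ± 2.18 to 17.8 ± 0.57 CPM (adjusted p = 3.1e-06). CARD10, the gene of a CARD-containing scaffold protein, did not pass the test, with a log2 fold change of 0.04 (edgeR adjusted p = 0.521). Of the IKK genes, IKBKB and IKBKG rose by 0.52 and 0.51, whereas CHUK, which encodes IKKα, fell by 0.27. Reads of IKBKG can be shared with a near-identical pseudogene copy, so its value is uncertain.

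The non-canonical arm was represented by 10 further genes, of which 1 was called higher and 2 lower, against 12.5% and 11.4% of all tested genes. Their median log2 fold change was 0.17. BIRC3, which encodes cIAP2, a ubiquitin ligase that keeps NIK low, rose from 23.0 ± 2.46 to 76.7 ± 5.38 CPM (log2 fold change 1.74, edgeR adjusted p = 5.0e-16). MAP3K14, the gene of NIK itself, fell from 19.1 ± 1.87 to 9.15 ± 0.88 CPM, a log2 fold change of -1.06 (adjusted p = 9.4e-09), and of -0.98 without ILL replicate 2, where it was not called. The other gene called lower was TNFRSF13C, the gene of the BAFF receptor, which averaged under 1 CPM over the 6 libraries and is named here to complete the count. Without control replicate 3, TNFRSF11A was also called higher, at a log2 fold change of 1.62 against 0.88 with all libraries. TNFRSF11A was under 1 CPM in every library, with 7, 10 and 25 counts in controls and 23, 24 and 28 with ILL. RELB and NFKB2 were higher in the libraries where MAP3K14 was lower, and a link between these changes was not tested.

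A list of 20 deubiquitinases and other brakes on NF-κB had 19 tested genes, with 3 called higher and 1 called lower, against the same background of 12.5% and 11.4%. Their median log2 fold change was 0.46. TNFAIP3, which encodes A20, rose from 48.8 ± 3.73 to 114 ± 5.36 CPM (log2 fold change 1.22, edgeR adjusted p = 1.4e-14). CYLD, the gene of another deubiquitinase of the pathway, rose by 1.40 (adjusted p = 6.7e-13), and NKIRAS2, a κB-Ras gene, by 1.05 (adjusted p = 1.4e-13). PDLIM2, whose protein targets nuclear RelA for degradation, fell from 92.1 ± 4.07 to 21.6 ± 0.41 CPM, a log2 fold change of -2.09 (adjusted p = 5.0e-19). Without the fold cutoff, 11 genes of this list were higher and 6 lower, against 36.2% and 36.9% of all tested genes.

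Of 45 target genes of NF-κB outside the family, 38 were tested, 14 were called higher and 7 lower, against 12.5% and 11.4% of all tested genes, and the median log2 fold change was 0.60. Among called genes that averaged at least 1 CPM, the largest increases were in TRAF1, a signaling adaptor (3.42), PTGS2, which encodes cyclooxygenase-2 (3.13), IL32, a cytokine gene (2.39), and IL1A, which encodes interleukin-1α (2.001). IL1A went from 151 ± 5.93 to 606 ± 23.4 CPM (SD, n = 3; edgeR adjusted p = 1.4e-20). The largest decreases among these were in PTX3, a soluble pattern recognition protein (-2.84), the anti-apoptotic gene BCL2 (-2.02), and the chemokine genes CXCL5 (-1.73) and CXCL1 (-1.49). TRAF1 averaged only 0.52 CPM in controls, with 19, 17 and 21 counts. BCL2 averaged only 0.50 CPM with ILL, with 5, 33 and 14 counts. The SEs of the log2 fold changes of TRAF1 and BCL2 were 0.30 and 0.46, so their ranks are uncertain. PTX3 fell from 19.8 ± 0.94 to 2.76 ± 0.38 CPM (edgeR adjusted p = 1.3e-15). Genes called in both directions thus stood side by side in this list, as they did among the non-canonical genes and the brakes.

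**Figure D4:**
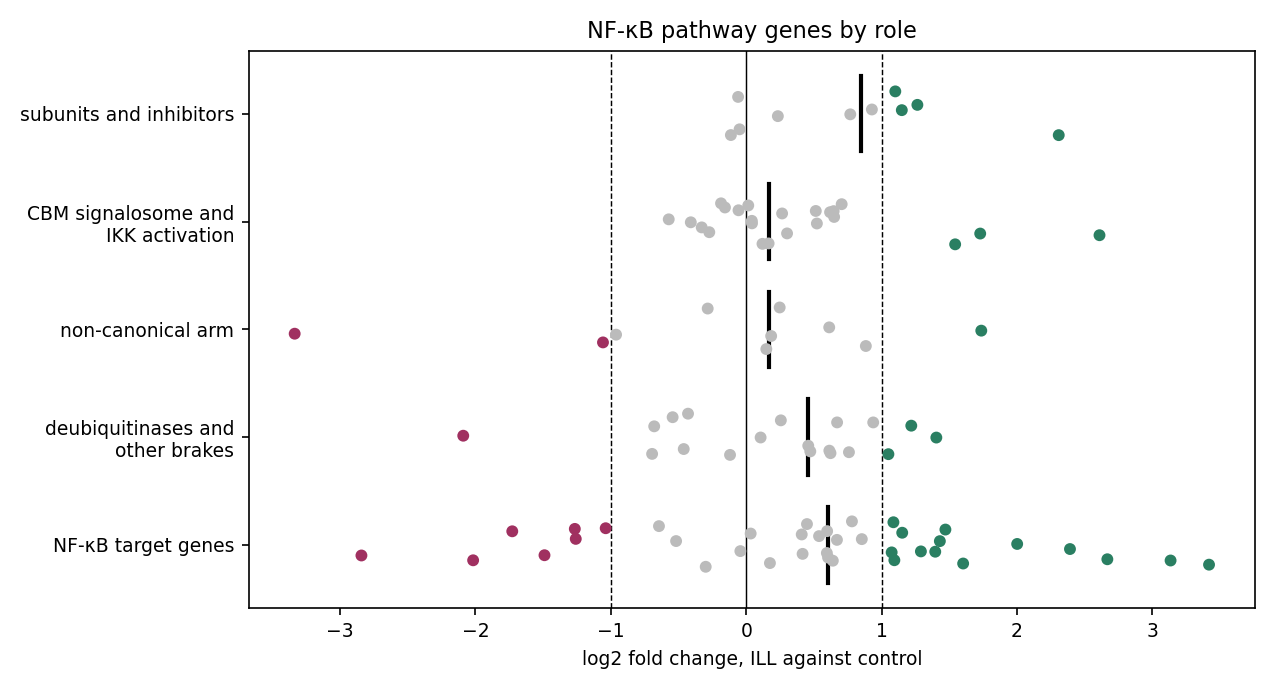
Log2 fold change of ILL against control for each tested gene of the family and of the 4 pathway lists; green points were called higher, purple-red points called lower and grey points not called, black bars are list medians, dashed lines mark 2-fold changes and the vertical spread of points is for visibility only. The family and the 4 lists have medians of 0.85, 0.17, 0.17, 0.46 and 0.60 from top to bottom.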

How the data were processed

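The 3 control and 3 ILL RNA-seq libraries of HCCC9810 cells were grouped by their titles. For each library the authors deposited 2 values a gene, an unnormalised read count and an FPKM; replicates were not pooled. The submitters' processing notes name GRCh38 and DESeq2; the aligner, counting program and annotation are not given in the sources used here. The deposited FPKM equalled counts over gene length and library total (100% of 88055 nonzero values within 0.1%).

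Genes were filtered with filterByExpr, scaled by TMM and tested with the quasi-likelihood test of edgeR 4.0.16 (R 4.3.3) on the whole table; standard errors follow from its F statistic. The fit was tested on simulated data. Replicate pairs differed by more than counting noise (chi-square per degree of freedom at least 5.09). Ratios used FPKM and an exact two-sided permutation test over the 20 splits. Alternatives were DESeq2 1.42.0, limma 3.58.1 on log2 of FPKM, other scalings and filters, a replicate block and leaving out each library. Counting error adds to the replicate spread and weighs more for genes with few counts. The SE of the log2 fold change was 0.14 for NFKBIE and 0.13 for NFKBIZ, against 0.06 for RELA.

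The family and the 4 pathway lists were chosen with earlier results of these data known. Named outside the family are up to 4 called genes at each end of a list (means of 1 CPM or more), and the CBM and IKK genes the study is about; 1 of these and 1 marker are not reported here. Positions and promoters are from RefSeq (GRCh38.p14), exon overlaps from GENCODE release 29.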

Additional observations from a re-analysis of the deposited data

How the results depend on the processing

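Over 15 alternative fits of the 10 family genes, 146 of 150 values kept their side of the call, and 8 genes kept it in all. The exceptions were NFKBIE, called without control replicate 3 or ILL replicate 1, and BCL3, not called by limma on log2 of FPKM plus 1 with or without the FPKM filter. NFKB1 was called in none of these fits, but its adjusted p without the fold cutoff ranged from 0.0255 (library size only) to 0.543. Between 4 and 5 of the 10 genes were called higher when each library was left out in turn, and 6 without the fold cutoff. Without the fold cutoff, the counts higher and lower were 12 and 5 for CBM and IKK genes, 4 and 4 for the non-canonical arm, 11 and 6 for the brakes, and 23 and 8 for the target genes, which follows from dropping the cutoff. With at least 10 counts in every library, the CBM list had 1 gene called higher and the non-canonical arm 1 called lower, as fewer genes are tested. With limma on log2 of FPKM plus 1, filtered or not, the CBM list had 1 higher, the non-canonical arm 0 lower, the brakes 1 higher and the target genes 9 higher, and with FPKM plus 0.1 the CBM list had 1 higher; the cause was not tested. Over the fits without 1 library, the non-canonical arm had from 1 to 2 genes called higher and from 1 to 2 called lower, the CBM list from 2 to 3 higher, and the target genes from 13 to 14 higher and from 6 to 8 lower. On raw counts not divided by length, the ratio of classical inhibitors to subunits differed by -0.17 (log2), and the ratio of NFKBIZ and BCL3 to subunits by 0.10 in place of -0.04, a change of sign; length weighting is the only difference. Without 1 library, the latter was between -0.13 and -0.0017, and the differences of RELB/RELA were between 1.49 and 1.63.

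Control and ILL libraries with the same replicate number deviated from their group means with correlations between -0.0218 and 0.0107 over genes, so no shared deviation was seen. The labels do not say whether these libraries were paired, and a correlation over all genes cannot show a pairing that affects few of them. With the replicate number as a block, 4 family genes were called higher and 3111 genes in all, against 3120 without it, and among the 108 genes of the family and lists 1 call changed. The exact sign-flip test over the 3 replicate pairs can give no p below 0.25.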

Other observations

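The chromosomal neighbours of the family were read as a description, chosen after the data had been seen. The nearest tested gene on each side of the 10 genes gave 20 genes, of which 3 were called higher and 1 lower with ILL, near the 12.5% and 11.4% of all tested genes, and their median log2 fold change was 0.13. For BCL3, both neighbours were called higher. CBLC, a ubiquitin ligase gene of the CBL family 17825 bp away, had a log2 fold change of 1.59, from 65.0 to 196 CPM (edgeR adjusted p = 1.3e-17). CEACAM19, 63350 bp away, had one of 1.08, from 2.27 to 4.81 CPM. The neighbours of NFKB1, which itself did not pass the test, were called in opposite directions. SLC39A8, a zinc and manganese transporter gene 155877 bp away, fell by 1.78 on the log2 scale. MANBA, a lysosomal mannosidase gene 13468 bp away, rose by 1.25. For RELB, the family gene with the largest change, CLPTM1 had a log2 fold change of 0.02 (edgeR adjusted p = 0.77), and CLASRP, 853 bp away, fell by 0.40. For NFKB2 the values were 0.12 for GBF1 (adjusted p = 0.064) and 0.34 for FBXL15.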
